A study of Mus musculus with 25 samples.

Results

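Transcripts of 10 genes that the tumour suppressor p53 is known to activate were followed in the livers of mice exposed to the liver carcinogen diethylnitrosamine (DEN). The genes are Cdkn1a, Phlda3, Bax, Mdm2, Ccng1, Gdf15, Btg2, Eda2r, Zmat3 and Trp53inp1. They were chosen by name as members of this pathway, with earlier results of these data known. All 10 were found among the 24774 genes listed in all 5 deposited tables (30524 genes are listed in at least 1 table).

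RNA sequencing was done on 25 livers of C3H/HeJ mice, an inbred strain prone to hepatocellular carcinoma. The labels describe males that were 5 weeks old at the start. The groups were DEN alone (6 libraries), DEN followed by caffeine (DEN_CAF, 5), DEN followed by the kinase inhibitor sorafenib (DEN_SOR, 4), DEN followed by both drugs (DEN_CAF_SOR, 5) and Untreated (5). The 20 exposed animals received 25 mg/kg DEN by intraperitoneal injection 2 times a week in 5 cycles of 3 weeks with a week of rest in each cycle, and the Untreated animals received saline on that schedule. After 1 month without injections, caffeine was given by gavage at 50 mg/kg 3 times a week in water, and sorafenib at 30 mg/kg 2 times a week in corn oil with 2% DMSO, for 3 weeks. The remaining animals were given the vehicles, so that DEN and Untreated livers also had the gavage. The labels give 6 animals in each group, and 25 libraries are analysed here. Whether a sampled piece of liver held a nodule is not given in the labels used here.

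p53 is kept scarce in resting cells by the ubiquitin ligase Mdm2, which marks it for degradation. DNA damage releases p53, which then binds paired half-sites near its target genes and raises their transcription. The targets slow the cell cycle, promote or restrain cell death, handle oxidative stress, and, through Mdm2 and cyclin G1, turn p53 itself down again. In the liver, DEN is activated by cytochrome P450 enzymes of hepatocytes and alkylates their DNA.

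The promoters of the members are shown because p53 binds paired half-sites near its target genes. A half-site alone does not mark a gene as a direct target. Windows of 250 bases before to 50 bases after an annotated start were taken from the RefSeq promoter table of build GRCm38.p6, a C57BL/6J genome, whereas the animals were C3H/HeJ. The table holds 10 windows for 8 of the 10 members, with none for Zmat3 and Trp53inp1. The p53 half-site was searched as the 10-base consensus under that name, which reads the same on both strands, and a pair of half-sites separated by at most 13 bases was counted as a full site. Matches stand in capitals in the windows of the 4 members that had one, printed 5′ to 3′ on the strand of the gene:
Cdkn1a, chr17:29090729-29091028, plus strand: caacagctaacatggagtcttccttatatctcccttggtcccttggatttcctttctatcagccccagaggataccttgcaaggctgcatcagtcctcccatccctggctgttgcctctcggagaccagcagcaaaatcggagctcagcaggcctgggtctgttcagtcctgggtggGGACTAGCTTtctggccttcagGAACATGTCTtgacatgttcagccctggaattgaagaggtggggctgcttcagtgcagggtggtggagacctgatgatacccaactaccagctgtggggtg
Mdm2, chr10:117710709-117711008, minus strand: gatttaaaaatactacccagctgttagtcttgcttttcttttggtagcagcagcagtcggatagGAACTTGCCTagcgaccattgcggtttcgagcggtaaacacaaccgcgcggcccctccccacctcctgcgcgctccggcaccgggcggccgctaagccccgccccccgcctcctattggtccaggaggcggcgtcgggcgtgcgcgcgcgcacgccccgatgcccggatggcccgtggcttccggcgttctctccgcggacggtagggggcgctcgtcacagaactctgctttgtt
Ccng1, chr11:40755237-40755536, minus strand: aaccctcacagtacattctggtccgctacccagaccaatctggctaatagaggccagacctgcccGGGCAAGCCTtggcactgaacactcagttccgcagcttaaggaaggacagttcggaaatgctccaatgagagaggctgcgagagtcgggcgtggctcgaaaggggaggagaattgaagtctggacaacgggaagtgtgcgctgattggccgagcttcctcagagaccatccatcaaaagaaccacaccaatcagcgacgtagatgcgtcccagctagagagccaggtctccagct
Bax, chr7:45466849-45467148, minus strand: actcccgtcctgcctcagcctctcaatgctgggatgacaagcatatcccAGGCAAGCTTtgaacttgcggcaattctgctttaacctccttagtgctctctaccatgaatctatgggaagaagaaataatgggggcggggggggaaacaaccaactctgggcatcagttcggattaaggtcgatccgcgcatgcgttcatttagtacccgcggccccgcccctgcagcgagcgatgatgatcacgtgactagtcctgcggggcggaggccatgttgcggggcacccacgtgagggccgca

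Cdkn1a carried 2 half-sites, the first starting 73 bases before the annotated start, and together they met the definition of a full site. The single matches of Mdm2, Ccng1 and Bax started 186, 185 and 201 bases before the start. A half-site was found in 8.36% of all 32851 windows of the table and in 9.55% of its 27025 genes, and a full site in 0.0731% of windows. The other windows of the members, those of Phlda3, Gdf15, Btg2 and Eda2r and a second window of Cdkn1a, held no match to these letters, which says nothing of sites elsewhere in those genes. The matches are descriptions of the reference sequence; binding was not measured in these livers.

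The libraries held between 14750278 and 21992613 assigned reads. Levels are given as FPKM (reads scaled to gene length and to the library's assigned reads, mitochondrial reads included), which can be compared between genes. The tissue matched its label: Alb, the gene of serum albumin, averaged 27879 FPKM in DEN, 21533 in DEN_CAF, 19799 in DEN_SOR, 24182 in DEN_CAF_SOR and 26085 in Untreated livers. Untreated libraries 3, 4 and 5 went against the male label, with 22879, 29770 and 13370 reads of Xist, a noncoding transcript that silences an X chromosome in female cells, against 3 and 8 in Untreated 1 and 2 and at most 21 in any exposed library. For the members, the 4 comparisons with Untreated livers are therefore given with and without those 3 libraries. For Trp53, Mdm4 and the other gene lists they are given with all 5 Untreated libraries only. DEN 4 had 2 reads of Xist but only 132 of the Y-linked gene Ddx3y, against 914 to 1689 in the other exposed libraries, 1028 and 1373 in Untreated 1 and 2 and 30 to 84 in Untreated 3, 4 and 5. The libraries numbered 3 and 4 held more mitochondrial reads than the others of their group, 9.58% to 34.8% against 5.65% to 9.81%, except Untreated 4, which with 6.36% had the least of its group, and values within each of these sets are given where a result depends on them. Titles number the samples as separate mice, so that the p-values measure the spread between these mice.

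Differences between groups were tested with limma on log2(FPKM + 1) over 12741 genes with at least 1 FPKM in at least 4 libraries, and a gene was called at a Benjamini-Hochberg adjusted p under 0.05. Of the 10 members, 8 passed that filter; Eda2r and Zmat3 were too low and were tested on reads with edgeR. Log2 differences on this scale understate the change of genes with low levels.

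Against Untreated livers, Cdkn1a, Phlda3 and Bax rose in DEN livers and in DEN_CAF livers, Cdkn1a and Phlda3 rose in DEN_SOR livers, and Phlda3 rose in DEN_CAF_SOR livers. The calls were 3 of 8 tested members for DEN, against 1.00% of all tested genes called higher, and 3 of 8 for DEN_CAF, against 0.683%. They were 2 of 8 for DEN_SOR, against 1.64%, and 1 of 8 for DEN_CAF_SOR, against 0.212%. All 8 limma differences were positive in each of the 4 comparisons, but those of Btg2 and Trp53inp1 in DEN_CAF turned negative with edgeR (-0.19 and -0.03), and that of Trp53inp1 also with TMM library sizes in DEN_CAF (-0.04) and DEN_CAF_SOR livers (-0.01). Their median log2 difference was 0.67 in DEN, 0.67 in DEN_CAF, 0.63 in DEN_SOR and 0.52 in DEN_CAF_SOR livers, beside medians over all tested genes of 0.03, 0.04, -0.00 and 0.03. The 4 comparisons share the same 5 Untreated libraries. In bulk liver, more RNA of a gene per cell and more cells of a type that expresses it cannot be told apart.

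**Figure D1:**
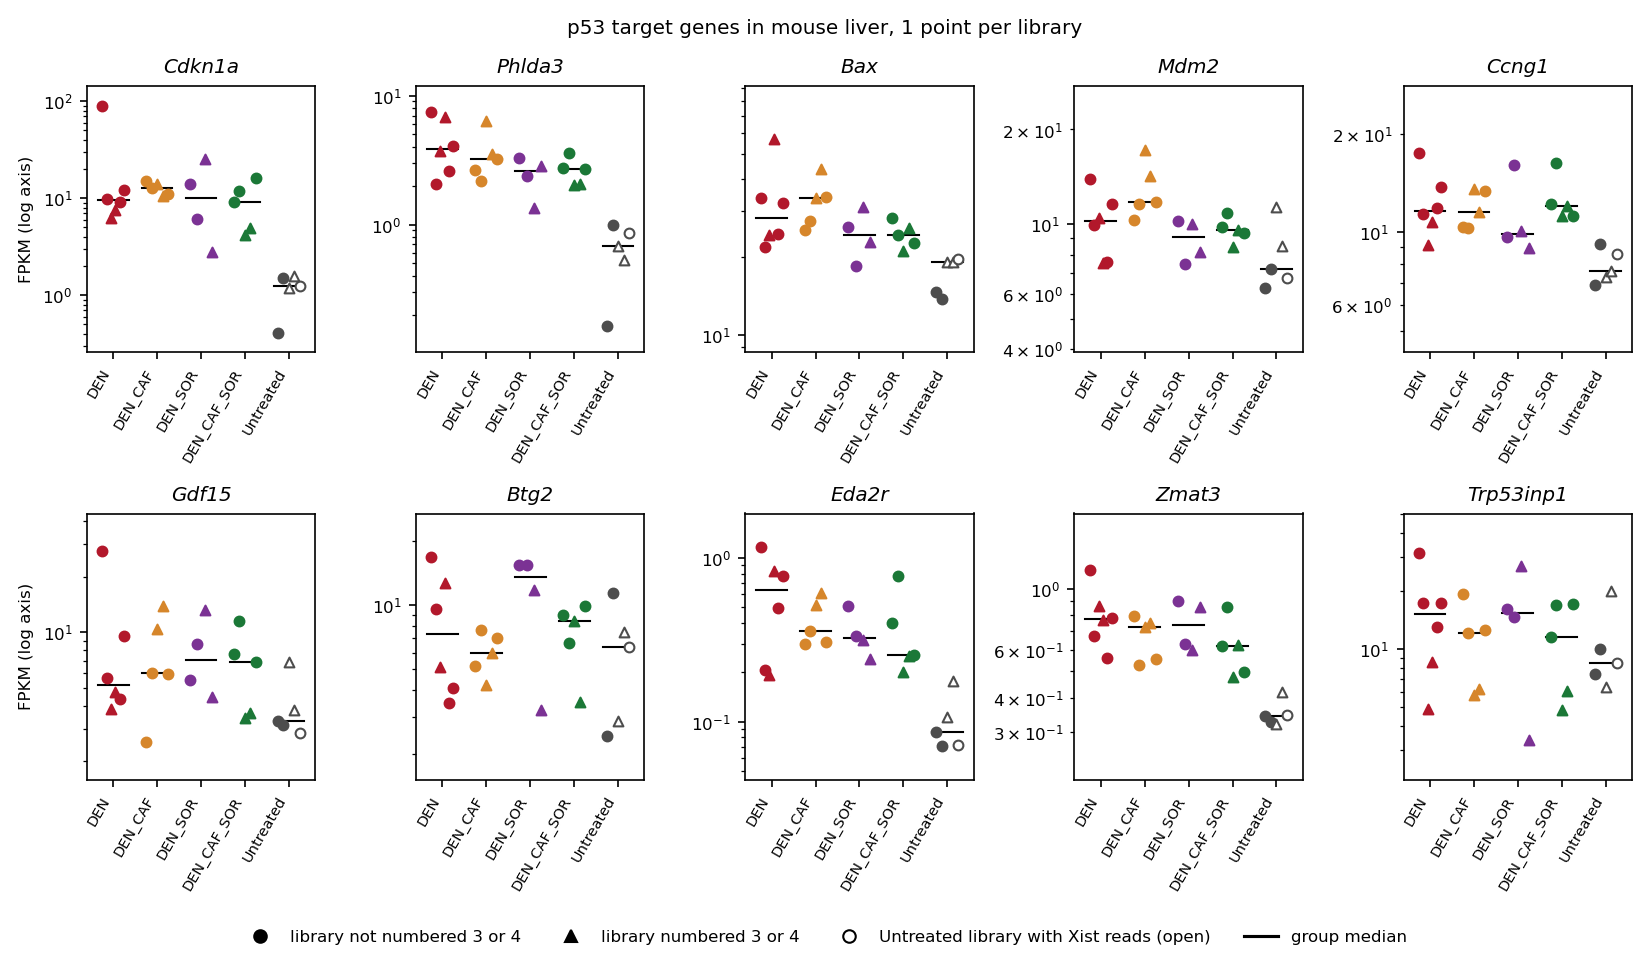
Level of each of the 10 p53 target genes in every library, in FPKM on a log axis, with 1 point per library, a bar at the group median, triangles for libraries numbered 3 or 4 and open symbols for the 3 Untreated libraries with Xist reads. In the panels of Cdkn1a, Phlda3, Eda2r and Zmat3 every exposed library lies above every Untreated library.

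The first group of members holds back cell division. Cdkn1a (ENSMUSG00000023067, chr17:29309950-29319701 on GRCm39, plus strand) encodes p21, an inhibitor of cyclin-dependent kinases and the best known p53 target. Its level in DEN livers had a lowest value of 6.32, a median of 9.47 and a highest of 89.7 FPKM. DEN_CAF livers had 15.1, 12.6, 13.9, 10.5 and 11.05 FPKM, DEN_SOR livers 14.0, 6.05, 25.6 and 2.79, and DEN_CAF_SOR livers 9.05, 11.9, 4.17, 4.89 and 16.1. Untreated livers had 0.412, 1.52, 1.197, 1.59 and 1.25 FPKM. All 20 exposed libraries thus lay above all 5 Untreated ones, from the lowest, DEN_SOR 4, to the highest, DEN 1, which stood apart from the other 5 DEN livers. The mean was 22.4 ± 33.0 FPKM in DEN livers (SD, n = 6) and 9.00 ± 2.19 without DEN 1 (n = 5), against 1.19 ± 0.468 in Untreated livers (n = 5).

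Because of that mouse, the ratio of means and the ratio of medians differ for Cdkn1a. Relative to Untreated livers the ratio of medians was 7.58 in DEN, 10.1 in DEN_CAF, 8.00 in DEN_SOR and 7.24 in DEN_CAF_SOR livers, while the ratio of means in DEN livers was 18.8. The limma log2 difference was 2.73 in DEN (SE 0.51, adjusted p = 0.00531), 2.66 in DEN_CAF (SE 0.53, adjusted p = 0.0109) and 2.24 in DEN_SOR livers (SE 0.56, adjusted p = 0.0354). In DEN_CAF_SOR livers it was 2.11 (SE 0.53) and missed the threshold (adjusted p = 0.0744), although no DEN_CAF_SOR liver overlapped the Untreated ones; on reads, edgeR called it there too (log2 2.85, adjusted p = 0.0277). Leaving out DEN 1 lowered the DEN difference to 2.19 and did not end the call. The DEN_SOR call was lost without any one of Untreated 1, 3, 4 and 5 or DEN_SOR 1 and 3 (adjusted p 0.0619 to 0.129).

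Btg2 (ENSMUSG00000020423, chr1:134002908-134006858, minus strand), an antiproliferative protein that recruits mRNA deadenylases, overlapped between all groups. It averaged 8.65 ± 5.37 FPKM in DEN, 6.02 ± 1.38 in DEN_CAF, 11.4 ± 5.73 in DEN_SOR and 7.51 ± 2.52 in DEN_CAF_SOR livers, against 6.11 ± 3.66 in Untreated livers (SD, n = 6, 5, 4, 5 and 5). Within DEN livers its values ran between 3.49 and 16.8 FPKM, with a median of 7.37, and within Untreated livers between 2.43 and 11.3. The DEN difference of 0.41 (SE 0.40, adjusted p = 0.664) was within that spread.

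The next members feed back on p53. Mdm2 (ENSMUSG00000020184, chr10:117524780-117546663, minus strand) encodes the ubiquitin ligase that removes p53. Its levels in DEN livers ran between 7.51 and 13.9 FPKM with a median of 10.2. DEN_CAF livers had 10.3, 11.6, 17.2, 14.2 and 11.8 FPKM, DEN_SOR livers 10.2, 7.46, 10.02 and 8.14, DEN_CAF_SOR livers 9.79, 10.9, 8.47, 9.55 and 9.35, and Untreated livers 6.26, 7.22, 11.3, 8.54 and 6.75. Every exposed group overlapped the Untreated range, whose top value, in Untreated 3, came from a library with Xist reads. The log2 difference was 0.64 in DEN_CAF livers (SE 0.17, adjusted p = 0.0592) and between 0.16 and 0.30 in the other 3 groups (adjusted p 0.35 to 0.667), so that Mdm2 was not called in any of them with limma, although DESeq2 called it in DEN_CAF livers (adjusted p = 0.0199).

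Ccng1 (ENSMUSG00000020326, chr11:40639379-40646138, minus strand) encodes cyclin G1, which brings a phosphatase to Mdm2. It had a lowest value of 9.14, a median of 11.6 and a highest of 17.5 FPKM in DEN livers. DEN_CAF livers had 10.4, 10.3, 13.5, 11.5 and 13.4 FPKM, DEN_SOR livers 9.70, 16.0, 10.1 and 8.96, DEN_CAF_SOR livers 12.2, 16.2, 11.2, 12.0 and 11.2, and Untreated livers 6.88, 9.22, 7.28, 7.61 and 8.58. DEN_CAF and DEN_CAF_SOR livers all lay above the Untreated livers, whereas DEN 3 and DEN_SOR 4 fell just under Untreated 2. DEN 3 held 33.4% and DEN_SOR 4 34.8% mitochondrial reads. With reads outside the mitochondrial chromosome, every exposed liver lay above every Untreated liver for Ccng1. The limma log2 differences, 0.57 in DEN, 0.52 in DEN_CAF, 0.42 in DEN_SOR and 0.60 in DEN_CAF_SOR livers (SE 0.15 to 0.17), did not pass the adjusted threshold (adjusted p 0.0522 to 0.17).

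The next members act on cell survival and death. Phlda3 (ENSMUSG00000041801, chr1:135693857-135696874, plus strand) encodes a small protein that keeps the kinase AKT from the membrane. Its levels in DEN livers had a lowest value of 2.06, a median of 3.86 and a highest of 7.42 FPKM. DEN_CAF livers had 2.65, 2.18, 6.39, 3.53 and 3.24 FPKM, DEN_SOR livers 3.25, 2.39, 1.34 and 2.83, DEN_CAF_SOR livers 2.72, 3.56, 2.04, 2.05 and 2.68, and Untreated livers 0.163, 0.989, 0.682, 0.531 and 0.859. All exposed livers lay above all Untreated livers, the nearest being DEN_SOR 3 with 1.34 and Untreated 2 with 0.989. The lowest Untreated value rested on 4 reads.

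The limma log2 difference of Phlda3 was 1.65 in DEN (SE 0.24, adjusted p = 0.000433), 1.44 in DEN_CAF (SE 0.26, adjusted p = 0.0037), 1.06 in DEN_SOR (SE 0.27, adjusted p = 0.0371) and 1.14 in DEN_CAF_SOR livers (SE 0.26, adjusted p = 0.0407). No single library ended the DEN or the DEN_CAF call. The DEN_SOR call was lost without any one of Untreated 1, 3, 4 and 5 or DEN_SOR 1, 2 and 4 (adjusted p 0.0506 to 0.139). The DEN_CAF_SOR call was lost without any one of Untreated 1, 3, 4 and 5 or any DEN_CAF_SOR library (adjusted p 0.0522 to 0.112).

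Bax (ENSMUSG00000003873, chr7:45111121-45116322, minus strand) encodes the protein that permeabilises the mitochondrial outer membrane in apoptosis and had the highest mean of the 10 genes in every group. DEN livers had a lowest value of 21.9, a median of 28.3 and a highest of 57.1 FPKM. DEN_CAF livers had 25.4, 27.6, 33.9, 43.7 and 33.97 FPKM, DEN_SOR livers 26.0, 18.5, 31.1 and 22.8, DEN_CAF_SOR livers 28.2, 24.3, 21.1, 25.7 and 22.7, and Untreated livers 14.6, 13.7, 19.0, 19.1 and 19.7. DEN_SOR 2 was the only exposed liver inside the Untreated range. Bax rose in DEN livers by a log2 difference of 0.81 (SE 0.20, adjusted p = 0.0331) and in DEN_CAF livers by 0.89 (SE 0.21, adjusted p = 0.0347); in DEN_SOR livers the difference was 0.48 (SE 0.22, adjusted p = 0.237) and in DEN_CAF_SOR livers 0.49 (SE 0.21, adjusted p = 0.36). The DEN call was lost without any one Untreated library, DEN 4, the liver with few Ddx3y reads, or DEN 6 (adjusted p 0.0507 to 0.0862), and the DEN_CAF call without any one of Untreated 1 to 4 or DEN_CAF 3 to 5 (adjusted p 0.0508 to 0.101).

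Eda2r (ENSMUSG00000034457, chrX:96377446-96420822, minus strand), a receptor of the tumour necrosis factor family, was scarce. In DEN livers its lowest value was 0.193, its median 0.633 and its highest 1.17 FPKM, and the means were 0.612 ± 0.385 in DEN, 0.418 ± 0.139 in DEN_CAF, 0.3496 ± 0.112 in DEN_SOR and 0.376 ± 0.233 in DEN_CAF_SOR livers. Untreated livers had 0.0864, 0.0705, 0.106, 0.176 and 0.0723 FPKM, which stand for 8, 7, 10, 20 and 7 reads. The lowest exposed liver was DEN 3 and the highest Untreated liver Untreated 4, and the groups did not overlap. On reads, edgeR called Eda2r higher in DEN (log2 2.48, adjusted p = 0.00297), DEN_CAF (1.92, adjusted p = 0.0289) and DEN_SOR livers (1.67, adjusted p = 0.0396), and the difference of 1.76 in DEN_CAF_SOR livers missed the threshold (adjusted p = 0.0531). limma without the filter on low levels did not call it in any of the 4 groups, with an adjusted p of 0.0589 in DEN and 0.306 to 0.491 in the others.

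Zmat3 (ENSMUSG00000027663, chr3:32388941-32420163, minus strand), a zinc finger protein that binds RNA and alters splicing, was scarce as well but even within groups. It averaged 0.803 ± 0.209 FPKM in DEN, 0.671 ± 0.122 in DEN_CAF, 0.746 ± 0.156 in DEN_SOR and 0.615 ± 0.153 in DEN_CAF_SOR livers, against 0.352 ± 0.040 in Untreated livers. The lowest exposed value, 0.475 in DEN_CAF_SOR 3, was above the highest Untreated value, 0.421 in Untreated 4. edgeR called Zmat3 higher in DEN (log2 1.09, adjusted p = 0.0038), DEN_CAF (0.81, adjusted p = 0.0452) and DEN_SOR livers (1.01, adjusted p = 0.0103), whereas the 0.70 of DEN_CAF_SOR livers was not called (adjusted p = 0.101). limma without the filter called Zmat3 in DEN livers (adjusted p = 0.0229) but not in DEN_CAF (0.168), DEN_SOR (0.0571) or DEN_CAF_SOR livers (0.35). With edgeR, 5, 5, 4 and 2 of the 10 members were called in DEN, DEN_CAF, DEN_SOR and DEN_CAF_SOR livers, beside 2.88%, 1.33%, 4.64% and 0.787% of its 17159 genes called higher. DESeq2 called 6, 6, 4 and 5 members, beside 5.84%, 2.57%, 7.97% and 2.20% of genes called higher. For the 8 limma-tested members, DESeq2 called 4 differences from Untreated livers that limma had not called, among them Mdm2 in DEN_CAF livers.

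Trp53inp1 (ENSMUSG00000028211, chr4:11156431-11174379, plus strand), a stress protein that promotes p53 activity and autophagy, overlapped in all groups. It had a lowest value of 4.87, a median of 15.1 and a highest of 31.5 FPKM in DEN livers, and its means were 15.4 ± 9.25 in DEN, 11.2 ± 5.55 in DEN_CAF, 15.2 ± 9.57 in DEN_SOR, 11.3 ± 5.79 in DEN_CAF_SOR and 10.5 ± 5.53 in Untreated livers. The DEN difference was 0.43 (SE 0.46, adjusted p = 0.698).

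Gdf15 (ENSMUSG00000038508, chr8:71082043-71085106, minus strand) encodes the only secreted product among the members, a stress cytokine that also answers to other pathways. DEN livers had a lowest value of 3.84, a median of 5.20 and a highest of 27.6 FPKM, and averaged 9.29 ± 9.20, or 5.63 ± 2.29 without DEN 1. The means were 7.74 ± 4.41 in DEN_CAF, 7.95 ± 3.94 in DEN_SOR and 6.62 ± 3.35 in DEN_CAF_SOR livers, against 3.98 ± 1.64 in Untreated livers. The groups overlapped, and the DEN difference of 0.77 was not called by limma (SE 0.41, adjusted p = 0.366).

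**Figure D2:**
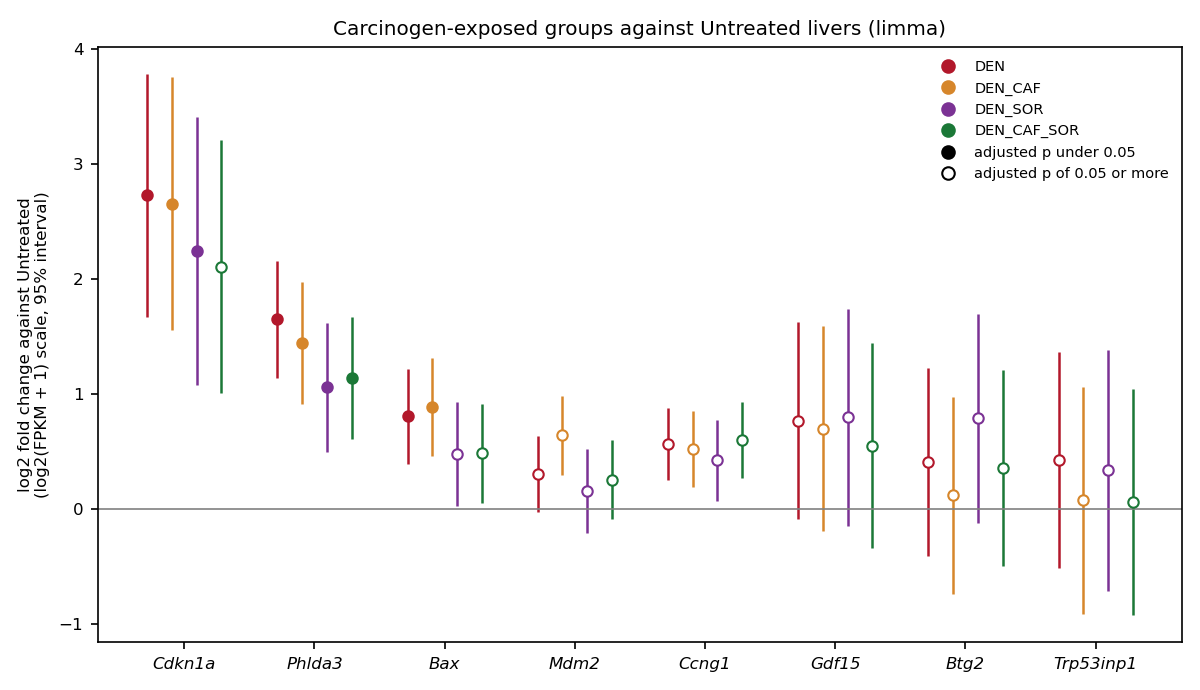
Log2 difference of each exposed group against Untreated livers for the 8 tested members, on the log2(FPKM + 1) scale, with 95% intervals from limma and filled symbols for an adjusted p under 0.05. Cdkn1a and Phlda3 have the highest values in all 4 groups, and the intervals of Gdf15, Btg2 and Trp53inp1 include 0 in each of them.

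Counted by overlap alone, 5 of the 10 members had every DEN library above every Untreated library, namely Cdkn1a, Phlda3, Bax, Eda2r and Zmat3, against 2.07% of the 24774 genes in all 5 tables. The count was 6 in DEN_CAF, where Ccng1 joined them, against 3.33%. It was 4 in DEN_SOR, without Bax and Ccng1, against 4.38%, and 6 in DEN_CAF_SOR, the same 6 genes as in DEN_CAF, against 3.10%. Cdkn1a, Phlda3, Eda2r and Zmat3 had all 20 exposed libraries above all 5 Untreated ones, which was so for 0.480% of genes. The same 4 genes were found with TMM library sizes, against 0.428% of genes. With reads outside the mitochondrial chromosome Ccng1 joined them, giving 5 of 10 against 0.634%. Among libraries numbered 3 and 4 the count was 6, against 4.88%, and among the others 7, against 4.26%; both sets hold fewer libraries, which by itself lets more genes separate.

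Without the 3 Untreated libraries with Xist reads, 2 Untreated libraries remained. Phlda3 was then still called in DEN livers (log2 1.74, adjusted p = 0.0274), and no other member was called in any of the 4 comparisons with limma, which called 0.165%, 0.141%, 0.220% and 0.0392% of genes higher in DEN, DEN_CAF, DEN_SOR and DEN_CAF_SOR livers. edgeR called no member. The share of all genes that edgeR called there is not given here, so its count cannot be told apart from fewer calls over all genes. The limma differences of the 3 genes called with all libraries were not smaller: for Cdkn1a they were 2.91 in DEN, 2.84 in DEN_CAF, 2.43 in DEN_SOR and 2.29 in DEN_CAF_SOR livers (adjusted p 0.108 to 0.416), and for Bax 1.06 in DEN and 1.14 in DEN_CAF livers (adjusted p = 0.127 and 0.0951). For Phlda3 they were 1.53 in DEN_CAF, 1.15 in DEN_SOR and 1.23 in DEN_CAF_SOR livers (adjusted p 0.0851 to 0.317). Those of other members were in part smaller, for example 0.55 without and 0.57 with the 3 libraries for Ccng1 in DEN livers, and by edgeR 1.02 and 1.09 for Zmat3. By overlap, Bax and Mdm2 joined the members whose exposed libraries were all above the remaining Untreated ones, giving 6 of 10 against 3.97% of genes. Eda2r lies on the X chromosome, and its level was 0.0864 and 0.0705 FPKM in Untreated 1 and 2 and between 0.0723 and 0.176 in the 3 libraries with Xist reads.

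The drug comparisons ask whether caffeine, sorafenib or both altered these transcripts in carcinogen-exposed livers. No member was called by limma, edgeR or DESeq2 in DEN_CAF, DEN_SOR or DEN_CAF_SOR against DEN, among the 3 drug groups, or in the interaction of caffeine with sorafenib. limma called 0.00785% of genes in DEN_CAF against DEN, which is 1 gene, and 0% in the other 6 comparisons, edgeR called 0% in all 7, and DESeq2 called 0.0586% in DEN_CAF against DEN, 0.268% in DEN_SOR against DEN, 0.0492% in the interaction and 0% in the other 4. At an unadjusted limma p under 0.05, 1 of 8 members was found in DEN_CAF, 1 in DEN_SOR and 1 in DEN_CAF_SOR against DEN, beside 2.81%, 6.19% and 2.72% of tested genes. All 10 members overlapped between each drug group and DEN livers, where 0.212% of tested genes in DEN_CAF, 0.267% in DEN_SOR and 0.126% in DEN_CAF_SOR livers had every library above every DEN library. The shares with every library below every DEN library are not given here, so these shares cover only 1 direction. Of the 8 tested members, 2 had a positive difference in DEN_CAF, 2 in DEN_SOR and 1 in DEN_CAF_SOR livers against DEN. These counts all use the same DEN libraries, and DEN 1 was the highest exposed liver for 8 of the 10 members. The share of all tested genes with a positive difference is not given here, so the counts do not show a drug difference.

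The intervals give the sizes of a drug difference that these livers allow. For Cdkn1a the log2 difference against DEN was -0.07 in DEN_CAF (95% interval -1.12 to 0.98), -0.49 in DEN_SOR (-1.61 to 0.64) and -0.62 in DEN_CAF_SOR livers (-1.67 to 0.43). These values rest on DEN 1: without it the difference was 0.46 in DEN_CAF and 0.05 in DEN_SOR livers. The spread of Cdkn1a between DEN_SOR livers, 2.79 to 25.6 FPKM, exceeded that between DEN_CAF livers, 10.5 to 15.1 FPKM; the difference in spread was not tested.

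Phlda3 was lower in the sorafenib groups at unadjusted p-values only. The limma log2 difference of this gene against DEN was -0.59 in DEN_SOR (SE 0.26, 95% interval -1.13 to -0.05, unadjusted p = 0.0326, adjusted p = 0.787) and -0.51 in DEN_CAF_SOR livers (SE 0.24, 95% interval -1.01 to -0.00, unadjusted p = 0.0485, adjusted p = 1). It was -0.21 in DEN_CAF livers (95% interval -0.71 to 0.30). DEN livers spread from 2.06 to 7.42 FPKM and contained all DEN_SOR values but 1.34 in DEN_SOR 3, and all DEN_CAF_SOR values but 2.04 and 2.05.

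Mdm2 had its highest levels in DEN_CAF livers, which averaged 13.03 ± 2.72 FPKM (SD, n = 5), against 10.2 ± 2.43 in DEN (n = 6), 8.95 ± 1.37 in DEN_SOR (n = 4) and 9.60 ± 0.862 in DEN_CAF_SOR livers (n = 5). The 5 DEN_CAF libraries, from 10.3 FPKM upwards, all lay above the 4 DEN_SOR libraries, of which the highest had 10.2. It was the only member without overlap in the 6 comparisons of exposed groups. The share of tested genes with every library of the first group above was 0.950% in that comparison, 0.408% in DEN_CAF_SOR against DEN_SOR and 0.157% in DEN_CAF_SOR against DEN_CAF. The log2 difference was 0.48 in DEN_CAF against DEN_SOR (SE 0.18, 95% interval 0.12 to 0.85, unadjusted p = 0.0111), 0.34 in DEN_CAF against DEN (SE 0.16, 95% interval 0.01 to 0.67, unadjusted p = 0.0434) and -0.39 in DEN_CAF_SOR against DEN_CAF livers (SE 0.17, 95% interval -0.73 to -0.04, unadjusted p = 0.0285). At that unadjusted level limma found 1 of 8 members in each of these 3 comparisons, beside 3.74%, 2.81% and 2.95% of genes. None passed adjustment over all genes, where the smallest adjusted p of any member was 0.9998 in DEN_CAF against DEN and 0.787 in DEN_SOR against DEN. The difference of Mdm2 against DEN was -0.15 in DEN_SOR (95% interval -0.50 to 0.20) and -0.05 in DEN_CAF_SOR livers (-0.38 to 0.28). For the interaction, log2 values of the 8 members ran from -0.24 to 0.29, with a smallest limma adjusted p of 0.992.

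**Figure D3:**
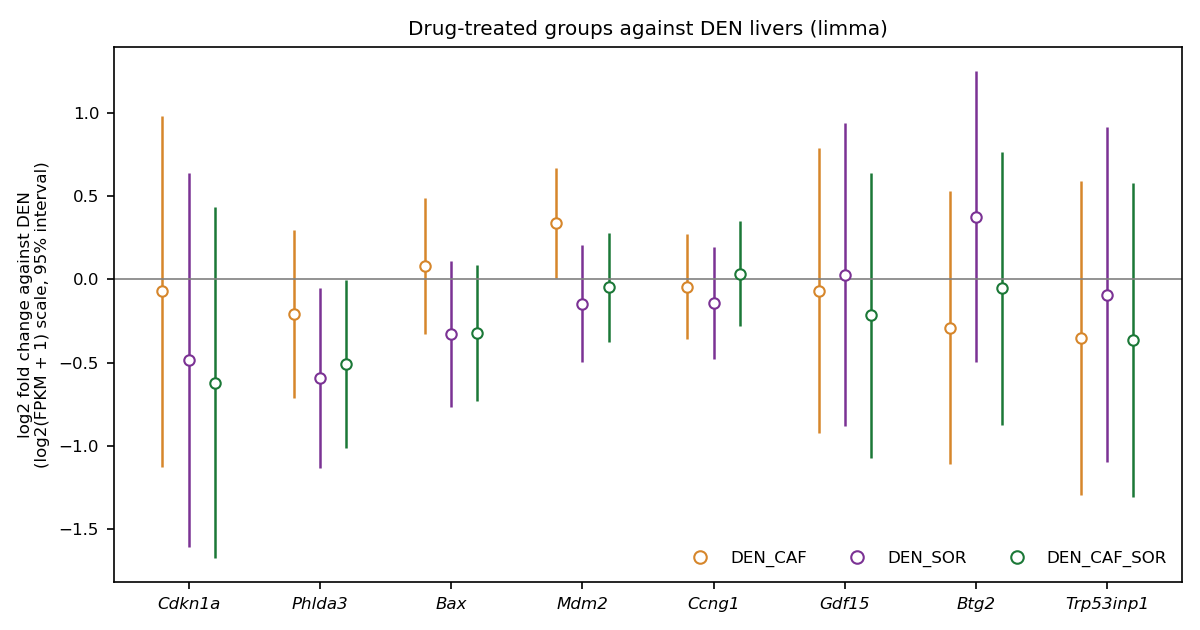
Log2 difference of the 3 drug-treated groups against DEN livers for the 8 tested members, on the log2(FPKM + 1) scale with 95% intervals from limma. Open symbols mark that no adjusted p was under 0.05; the intervals of Mdm2 in DEN_CAF and of Phlda3 in DEN_SOR and DEN_CAF_SOR livers lie on one side of 0.

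Within the exposed livers, the members varied from mouse to mouse. DEN 1 had the highest level of 8 of the 10 members among the 20 exposed livers, the exceptions being Bax, which was highest in DEN 4 with 57.1 FPKM, and Mdm2, which was highest in DEN_CAF 3 with 17.2 FPKM. DEN 1 held 89.7 FPKM of Cdkn1a, 27.6 of Gdf15, 31.5 of Trp53inp1 and 16.8 of Btg2. Over the 8 tested members its mean standardised level was 1.92 SD above the mean of the exposed livers. At the other end, DEN_SOR 4 had the lowest Cdkn1a, Ccng1, Btg2 and Trp53inp1, with 2.79, 8.96, 3.24 and 3.36 FPKM, and a mean standardised level of -1.17. DEN_CAF_SOR 3 was among the lowest 3 livers for 7 members and had a mean of -0.83.

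Library measures of these mice stand beside those values. DEN 1 held 6.74% mitochondrial reads, DEN_SOR 4 held 34.8%, the highest share of all, and DEN_CAF_SOR 3 held 15.7%. FPKM is scaled to totals that include mitochondrial reads, so a large share lowers the FPKM of all other genes in that library. The low ranks of DEN_SOR 4 and DEN_CAF_SOR 3 hold on that scale. Ranks of the members on reads outside the mitochondrial chromosome are not given here. In DEN 1, the summed level of 8 monocyte and neutrophil markers was 23.3 FPKM, rank 19 of 20, that of 9 Kupffer cell markers 92.7, rank 17, and that of 8 cholangiocyte markers 93.5, rank 6. Sums over other p53 targets were high in DEN 1 too. Those over 15 repair and metabolism genes, 682.8 FPKM, and over 17 growth arrest genes, 412.4, had rank 1. That over 13 cell death genes, 150.5, had rank 2. The highest DEN_CAF liver came close for the repair and metabolism genes, with 680.3 FPKM. Such sums are weighted towards the most abundant genes, and levels of the single genes in DEN 1 are not given here. DEN 4, the liver with the highest Bax, had the highest sum of monocyte and neutrophil markers, 450.8 FPKM, and of hepatocyte markers, 96199, and the second highest sum of the 18 cell cycle genes described below, 33.6. The part of these measures in the members' levels was not tested.

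**Figure D4:**
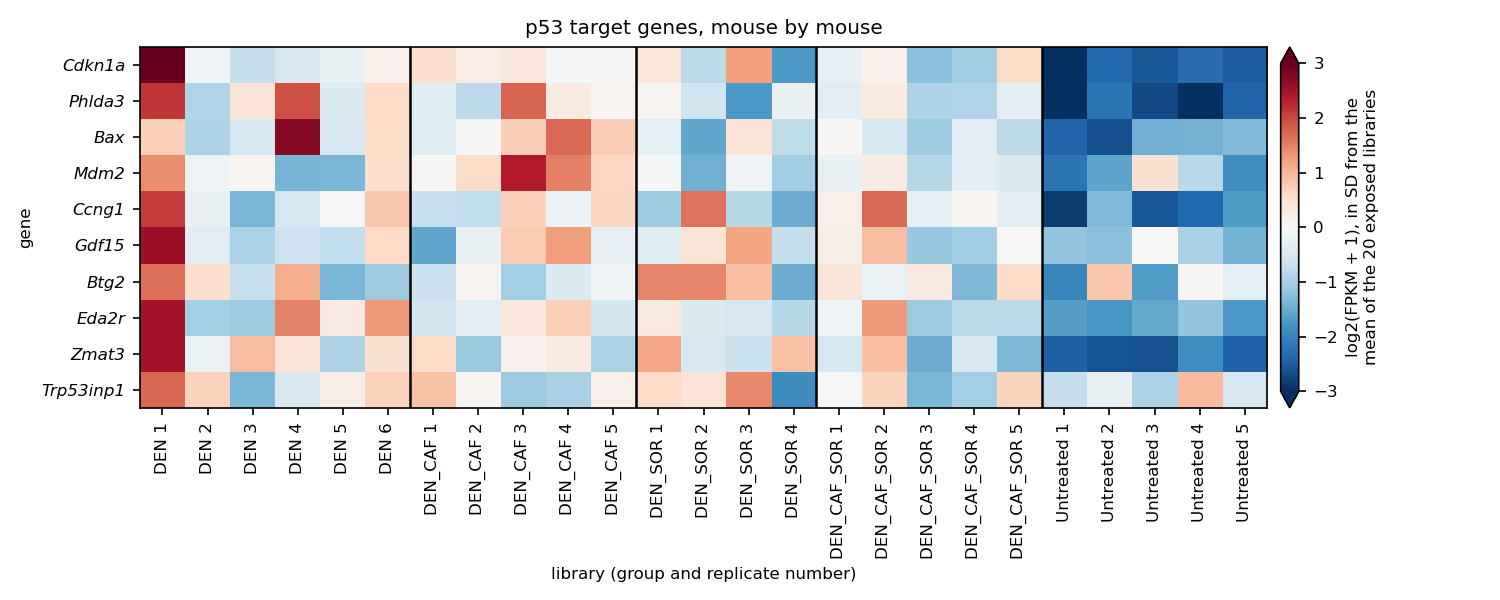
Standardised log2(FPKM + 1) of the 10 members in each of the 25 libraries, in SD from the mean of the 20 exposed libraries, with red above and blue below that mean and values past 3 SD shown at the end of the scale. DEN 1 is high in nearly every row, and the Untreated columns are low in the rows of Cdkn1a, Phlda3, Eda2r and Zmat3.

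Whether members were high in the same mice was measured against Cdkn1a over the 20 exposed livers, which leaves out the difference from Untreated livers. Of 9 relations, 4 had an adjusted permutation p under 0.05 (two-sided, 100000 permutations, Benjamini-Hochberg over the 9). Trp53inp1 had Pearson's r = 0.78 (p = 1e-05, the smallest these permutations can give, adjusted 9e-05) and Spearman's rho = 0.74 (permutation p = 0.00018, adjusted 0.00162). Gdf15 had r = 0.70 (permutation p = 0.00096, adjusted 0.00432) and rho = 0.51 (permutation p = 0.022, adjusted 0.0659). Eda2r had r = 0.58 (permutation p = 0.00842, adjusted 0.0253) and rho = 0.42 (permutation p = 0.0664, adjusted 0.149), and Mdm2 had r = 0.54 (permutation p = 0.0158, adjusted 0.0355) and rho = 0.56 (permutation p = 0.011, adjusted 0.0494). With reads outside the mitochondrial chromosome Mdm2 fell to r = 0.36 (permutation p = 0.117, adjusted 0.21) and 3 relations remained under 0.05. On deviations from the means of the 4 exposed groups, chosen after seeing the data, Btg2 joined the 4, with r = 0.56 (permutation p = 0.01002, adjusted 0.022).

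Trp53inp1 had the highest r of the 9 members also when the extreme mice were left out. Without DEN 1 and DEN_SOR 4, the mice farthest from the median of Cdkn1a, r was 0.69 for Trp53inp1, 0.48 for Gdf15, 0.41 for Mdm2 and 0.20 for Eda2r, so on these levels the relation of Eda2r rested on those 2 mice; on deviations from group means, without DEN 1 and DEN_SOR 3, the farthest there, its r was 0.41. Phlda3, the other member with the clearest difference from Untreated livers, had r = 0.36 (permutation p = 0.123, adjusted 0.138) and rho = 0.21 (permutation p = 0.381) with Cdkn1a, and r = -0.04 without the 2 mice. The remaining members, Btg2, Ccng1, Zmat3 and Bax, had r between 0.30 and 0.46 (adjusted permutation p 0.0609 to 0.19). Within the 8 exposed libraries numbered 3 or 4, r was 0.83 for Trp53inp1, 0.84 for Gdf15 and 0.01 for Phlda3. Within the other 12 it was 0.84 for Trp53inp1, 0.63 for Gdf15 and 0.84 for Phlda3. Without the 2 extreme mice of each set, r among those numbered 3 or 4 was 0.30 for Trp53inp1, 0.89 for Gdf15 and 0.76 for Phlda3, and among the others 0.58, -0.17 and 0.16.

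**Figure D5:**
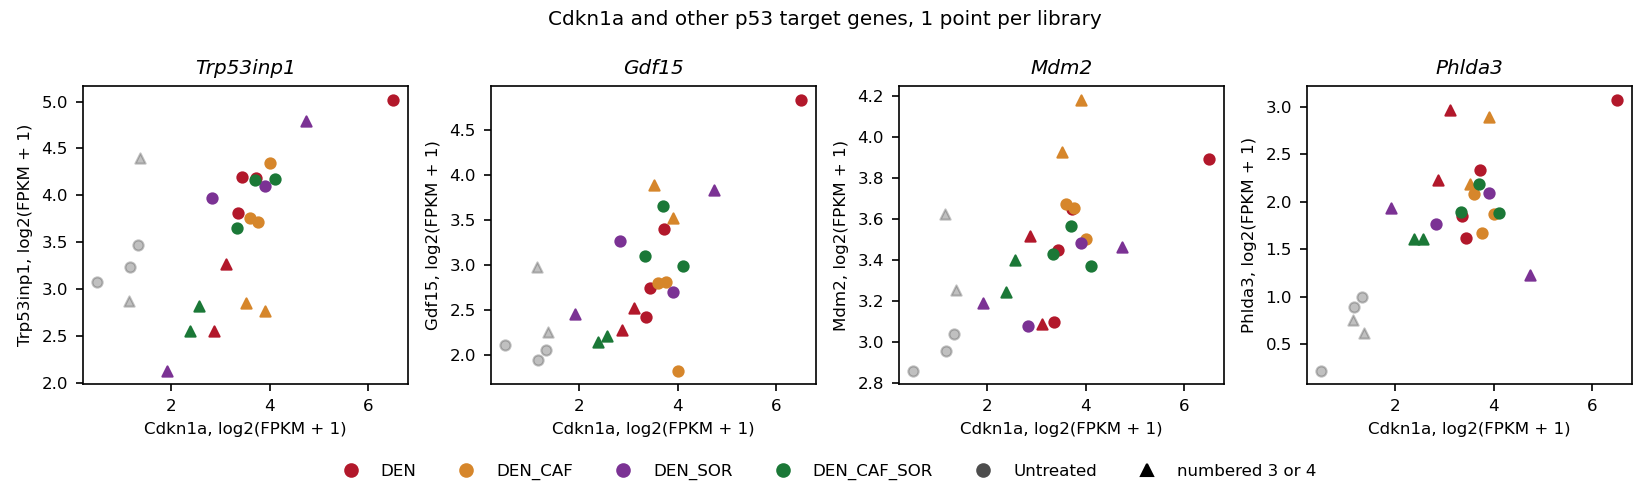
Trp53inp1, Gdf15, Mdm2 and Phlda3 against Cdkn1a in log2(FPKM + 1), with 1 point per library, groups by colour, triangles for libraries numbered 3 or 4, and Untreated libraries in grey. Trp53inp1 climbs with Cdkn1a among the exposed livers (r = 0.78, n = 20), and the Phlda3 panel shows no such slope once DEN 1, at the far right, is disregarded (r = -0.04 without DEN 1 and DEN_SOR 4).

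Genes outside the list whose level over the 20 exposed livers was most like the mean standardised level of the 8 tested members were, among 9945 protein-coding candidates, Rcc1 (r = 0.88), Mapre3 (0.82), R3hdm2 (0.81), Elmod3 (0.79) and Trim25 (0.79). Rcc1, the nucleotide exchange factor of the GTPase Ran, averaged 2.29 FPKM in exposed and 1.92 in Untreated livers and reached 4.99 in DEN 1. Mapre3, a microtubule end-binding protein, averaged 14.2 FPKM in exposed and 10.8 in Untreated livers, and Trim25, a ubiquitin ligase, 10.2 and 11.1. These correlations describe a ranking over mice that share libraries and depth, and carry no test.

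Trp53, the gene of p53, and Mdm4 were measured beside the targets. Trp53 averaged 5.73 ± 2.45 FPKM in DEN, 5.63 ± 1.56 in DEN_CAF, 4.05 ± 1.15 in DEN_SOR and 4.603 ± 1.13 in DEN_CAF_SOR livers, against 4.79 ± 0.619 in Untreated livers. Its log2 differences of 0.15, 0.17, -0.22 and -0.06 were not called by limma (adjusted p 0.629 to 0.945). Mdm4, the relative of Mdm2 that blocks p53's activation domain, averaged 7.76 ± 2.39 in DEN, 9.04 ± 1.56 in DEN_CAF, 7.16 ± 2.52 in DEN_SOR and 7.37 ± 0.251 in DEN_CAF_SOR livers, against 9.92 ± 2.65 in Untreated livers, with log2 differences of -0.33, -0.10, -0.44 and -0.35 (limma adjusted p 0.26 to 0.892). Of 18 genes of p53 and its regulators, which include these 2, 12 were tested and 0 were called in any comparison with Untreated livers by limma (at most 1 at an unadjusted p under 0.05) or edgeR; DESeq2 called 1, in DEN livers.

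Other known p53 targets were counted by the same tests, with all 5 Untreated libraries, as were the lists that follow. Of 13 cell death genes 9 were tested, and 0 were called in any of the 4 comparisons by limma (1 or 2 at an unadjusted p under 0.05), with medians of 0.10 in DEN, 0.20 in DEN_CAF, 0.11 in DEN_SOR and 0.00 in DEN_CAF_SOR livers. edgeR called 1 of 13 higher in DEN and in DEN_CAF livers, Tnfrsf10b, a death receptor (log2 2.73 and 2.46, adjusted p = 0.0139 and 0.0415), and DESeq2 1, 1, 0 and 1 in DEN, DEN_CAF, DEN_SOR and DEN_CAF_SOR livers. Of 15 repair and metabolism genes 12 were tested, with medians of -0.08, 0.07, 0.03 and -0.03 in that order of groups, and limma called 1, Sesn2, a leucine sensor that restrains mTORC1, in DEN_SOR livers (log2 0.89, SE 0.24, adjusted p = 0.0496), while edgeR called 0, 0, 1 and 0 and DESeq2 2, 1, 1 and 1, all higher. Of 17 growth arrest genes 10 were tested and 0 were called by limma (1 to 4 at an unadjusted p under 0.05), with medians of 0.12, 0.11, -0.00 and 0.15. On reads of 16 of them the edgeR medians were 0.80, 0.48, 0.28 and 0.15, and edgeR called 1 in DEN, 3 in DEN_CAF, 2 in DEN_SOR and 0 in DEN_CAF_SOR livers and DESeq2 3, 4, 4 and 3, all higher. In DEN livers the gene called by edgeR was Psrc1, a spindle protein (log2 4.75, adjusted p = 0.00514). Sesn2, Tnfrsf10b and Psrc1 are named here after their values were seen.

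Neighbouring programmes gave further context. Of 12 integrated stress response genes, which share Gdf15 as a known output, 11 were tested, and limma called Sesn2 in DEN_SOR livers and 0 elsewhere (1 to 3 at an unadjusted p under 0.05), with medians of 0.24 in DEN, 0.36 in DEN_CAF, 0.49 in DEN_SOR and 0.13 in DEN_CAF_SOR livers. On reads of 12 genes the edgeR medians were 0.01, 0.15, 0.58 and -0.08. edgeR called 2 in DEN livers, of which Psat1, an enzyme of serine synthesis, was higher and Vldlr, a lipoprotein receptor, lower (log2 3.05 and -3.05, adjusted p = 0.0358 and 0.0159), Vldlr alone, again lower, in DEN_CAF and DEN_CAF_SOR livers, and Sesn2 in DEN_SOR livers; Psat1 and Vldlr are named after their values were seen. Of 10 other inhibitors of cyclin-dependent kinases and senescence genes 8 were tested and 0 were called by limma (1 or 2 at an unadjusted p under 0.05), with medians between -0.09 and 0.02; edgeR called 1, 1, 0 and 1 of 9.

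Of the cell cycle genes that p21 is known to repress through the DREAM complex, none was called lower by limma or edgeR in the exposed groups, in which Cdkn1a was higher. Their summed level over 18 genes was 7.13 to 33.6 FPKM in DEN, 4.62 to 34.5 in DEN_CAF, 6.21 to 14.6 in DEN_SOR and 5.41 to 20.5 in DEN_CAF_SOR livers, against 2.66 to 6.01 in Untreated livers. All 10 tested genes had positive log2 differences in each group, with medians of 0.50, 0.49, 0.40 and 0.48, and limma called 0 of them (7, 5, 2 and 3 at an unadjusted p under 0.05). On reads, edgeR called 7 of 18 in DEN, 3 in DEN_CAF, 2 in DEN_SOR and 1 in DEN_CAF_SOR livers and DESeq2 13, 7, 5 and 6, all higher, with edgeR medians of 1.72, 1.64, 1.23 and 1.42. Among the 7 in DEN livers were Mki67, the proliferation antigen (log2 2.53, adjusted p = 0.0264), Cdk1, the mitotic kinase (2.14, adjusted p = 0.0198), and Ccnb1, its cyclin (3.90, adjusted p = 0.0188), named after their values were seen. In DEN 1, the liver with the most Cdkn1a, the sum was 7.13 FPKM, rank 15 of the 20 exposed livers.

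Markers of other liver cells were counted because bulk tissue mixes them. Cholangiocyte markers moved with DEN exposure: the summed level of 8 genes was 26.3 to 93.5 FPKM in DEN, 45.7 to 125 in DEN_CAF, 24.5 to 197 in DEN_SOR and 32.9 to 170 in DEN_CAF_SOR livers, against 13.1 to 18.4 in Untreated livers, and none of the 8 was at 0 reads throughout a group. Spp1 carried most of that range, with means of 38.4 FPKM in DEN, 101 in DEN_SOR and 8.39 in Untreated livers. Krt19 averaged 2.95 FPKM in DEN and 0.455 in Untreated livers. On reads, edgeR called Spp1, Krt19 and Epcam higher in each of the 4 groups (adjusted p 0.000826 to 0.0466). It also called Sox9 in DEN and Krt7 in DEN_SOR livers, both higher. Spp1, Krt19, Epcam and Krt7 are named after their values were seen. limma called 1, 2, 4 and 1 of the 6 tested, all higher, with medians of 1.00, 1.08, 1.42 and 0.89; in DEN livers it was Sox9, a biliary and progenitor transcription factor (log2 0.85, SE 0.20, adjusted p = 0.021). Their part in the members' rise was not tested. Of 9 hepatocyte and 9 Kupffer cell markers limma and edgeR called 0 in the 4 comparisons (at most 1 each at an unadjusted p under 0.05). Of 8 monocyte and neutrophil markers 4 were tested and 0 were called by limma or at an unadjusted p under 0.05, while edgeR called 2 of 8 higher in DEN livers. Of the 9 stellate cell, 2 T and NK cell and 2 B cell markers tested, limma called 0 (at most 4 at an unadjusted p under 0.05), and edgeR called 4 in all, in DEN and DEN_SOR livers. Of 7 endothelial markers limma called 1, Stab2, a scavenger receptor of sinusoids, which fell by 0.94 in DEN_SOR livers (adjusted p = 0.0378, named after its value was seen). On reads, edgeR called Stab2 and Kdr lower in DEN_SOR livers (log2 -1.12 and -1.28, adjusted p = 0.0256 and 0.0243). Kdr is also named after its value was seen.

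Reads of Cdkn1a could be shared with 1 gene on the opposite strand, 1700023B13Rik, which overlaps it by 1046 bases and held 1.28 reads on average, against 755.0 for Cdkn1a. No other member overlaps an annotated gene in the tables.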

How the data were processed

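Liver RNA of 25 mice was sequenced after a SMARTer library preparation, per the labels' protocols. Per the submitters' processing notes, HISAT2 2.0.5, featureCounts 1.5.0-p3 and build GRCm39 were used; the sources used here do not give the annotation release or the strand setting. The deposited tables, 1 for each of the 5 groups, are called FPKM, but their values are a signal of whole reads multiplied by a constant of each library: dividing by that constant gave whole reads for 100% of values (tolerance 0.01 read). From these reads, each library's total of assigned reads and the gene lengths in the tables, FPKM was computed here. The planned analysis assumed deposited FPKM; its test was kept, and count tests on the recovered reads were run beside it.

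limma 3.58.1 (R 4.3.3) fitted log2(FPKM + 1) for 12741 genes in 1 model of 25 libraries (20 residual degrees of freedom, trended variance), with Benjamini-Hochberg adjustment within each of 11 comparisons, two-sided, at 0.05. edgeR 4.0.16 (quasi-likelihood, TMM) and DESeq2 1.42.0 were the count tests. Other steps used Python 3.11.15, numpy 2.4.6, pandas 2.3.3 and scipy 1.17.1, with figures drawn in matplotlib 3.10.9. The fit was tested on simulated data.

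The members and gene lists were chosen with earlier results of these data known. The text names all 10 members, Trp53, Mdm4, the called genes of the other lists in DEN against Untreated or between exposed groups, and the 5 genes most like the members over exposed livers; other names are marked. Libraries were grouped by their titles. Between libraries of 1 group (51 pairs), reads differed beyond sampling noise in every pair (chi-square per degree of freedom 19.0 to 423), so none was counted as a duplicate. Depth was 14750278 to 21992613 assigned reads. Alternatives tried were another pseudocount, other filters, library scalings, count tests, a robust fit, fits within sets of libraries, terms for replicate numbers, and leaving out each library.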

Additional observations from a re-analysis of the deposited data

Results flagged for a closer look

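Among 50 groups of values (10 members in 5 groups), 8 had 1 library farther from the others than Dixon's test allows at the 95% level. Chance gives about 1 in 20 groups only where values are normally distributed. The test was run on FPKM without a log, and all 8 libraries lay on the high side. The members share the same mice, so the 50 groups are not independent.

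In DEN livers, Cdkn1a was 89.7 FPKM in DEN 1, where the next liver had 12.1, and Gdf15 was 27.6 FPKM in that mouse, where the next had 9.55. Bax was 57.1 FPKM in DEN 4, where the next liver had 33.7. Ccng1, the gene of cyclin G1, was 16.0 FPKM in DEN_SOR 2, where the next DEN_SOR liver had 10.1, and 16.2 FPKM in DEN_CAF_SOR 2, where the next DEN_CAF_SOR liver had 12.2.

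In Untreated livers, the libraries apart were among those with Xist reads. Gdf15 was 6.85 FPKM in Untreated 3, where the next liver had 3.78. In Untreated 4, Zmat3 was 0.421 FPKM, where the next liver had 0.346, and Trp53inp1 was 20.04 FPKM, where the next had 10.05.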

How the results depend on the processing

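Numbers of members called against Untreated livers depended on the test and on the libraries. limma called 3 in DEN, 3 in DEN_CAF, 2 in DEN_SOR and 1 in DEN_CAF_SOR livers; edgeR called 5, 5, 4 and 2 (without a filter 5, 3, 3 and 2) and DESeq2 6, 6, 4 and 5, both on 10 instead of 8 members. Without a filter limma called 0 in DEN_SOR and 0 in DEN_CAF_SOR livers. In DEN_CAF_SOR livers it called 2 with a pseudocount of 0.1, 3 with reads outside the mitochondrial chromosome and 3 with only the groups compared. Over libraries numbered 3 and 4 limma called 1, 0, 0 and 0, and over the others 0 in DEN_CAF, 0 in DEN_SOR and 0 in DEN_CAF_SOR livers. Without the Untreated libraries with Xist reads it called 1, 0, 0 and 0, and edgeR, chosen after seeing the data, 0, 0, 0 and 0. These sets hold fewer libraries, and for the other changes the cause was not tested. Beyond the shares given above, the share of all genes called under each setting is not set beside these counts. A change in calls over all genes can therefore not be told apart here from a change in the members. Leaving out 1 library gave 2 to 4 in DEN, 2 to 4 in DEN_CAF, 0 to 2 in DEN_SOR, 0 to 1 in DEN_CAF_SOR livers and 0 in the drug comparisons.

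Same-numbered libraries of different groups deviated together in part: 25 of 46 pairs correlated above 0.1 (range -0.28 to 0.54), among them every pair of exposed libraries numbered 2, and 8 of 25 libraries correlated best with their own number. Since not every pair did and the labels give no shared source, the numbers were not taken to pair the mice. With a replicate block limma called 3, 3, 1 and 0 members, losing Phlda3 in DEN_SOR and DEN_CAF_SOR livers. The share of all genes called with that block is not given here.

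The 8 limma-tested members against Untreated livers (32 differences) and 11 differences between exposed groups were recomputed. Of these recomputed values, 967 kept direction and side of the threshold, 77 lost a call, 21 gained one and 36 changed sign. Over libraries numbered 3 and 4 alone, where the median of all tested genes moved to -0.16 in DEN, -0.12 in DEN_CAF, -0.16 in DEN_SOR and -0.12 in DEN_CAF_SOR livers, Mdm2 was -0.13 in DEN, -0.11 in DEN_SOR and -0.12 in DEN_CAF_SOR livers, Gdf15 -0.22 in DEN and -0.44 in DEN_CAF_SOR, and Trp53inp1 -0.73 in DEN, -0.83 in DEN_CAF, -0.17 in DEN_SOR and -0.95 in DEN_CAF_SOR livers; against DEN, Cdkn1a was 0.72 in DEN_CAF and 0.34 in DEN_SOR, and Mdm2 0.023 in DEN_SOR and 0.017 in DEN_CAF_SOR livers. Without 1 library, Cdkn1a against DEN ran from -0.26 to 0.46 in DEN_CAF and from -0.95 to 0.050 in DEN_SOR livers, and Mdm2 from -0.12 to 0.041 in DEN_CAF_SOR livers, each positive without DEN 1. In DEN_CAF livers Btg2 was -0.19 with edgeR, -0.19 without its filter, -0.17 with DESeq2 and -0.49 with edgeR without the Xist libraries (-0.14 in DEN_CAF_SOR livers), and Trp53inp1 -0.030, -0.025 and -0.015 in the first 3 of these and -0.036 with TMM library sizes (-0.0068 in DEN_CAF_SOR livers). Without 1 library, Btg2 in DEN_CAF livers ran from -0.10 to 0.36 and Trp53inp1 from -0.14 to 0.32 in DEN_CAF, -0.012 to 0.88 in DEN_SOR and -0.11 to 0.31 in DEN_CAF_SOR livers. Members with every exposed library above every Untreated one numbered 4, and 7 over libraries not numbered 3 or 4, chosen after seeing the data.

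Depth limits Phlda3 and Eda2r most: Untreated livers held 4 to 26 reads of Phlda3 and 7 to 20 of Eda2r. With 4 to 6 libraries in the groups, a missed threshold does not show equal levels, and the sex of 3 Untreated libraries cannot be told apart from absence of DEN in them.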
